A study of Mus musculus with 2 samples.

Results

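SRF (serum response factor) is a DNA-binding transcription factor, and the smooth muscle type contractile genes it is known to control code for the actin filament and the proteins that bind it. The set described here is Srf itself and 9 contractile or actin-associated genes, Acta2, Tagln, Cnn1, Cnn2, Tpm1, Tpm2, Myl9, Actn1 and Pgm5. All probe sets (groups of short probes that read a transcript, mostly near its 3' end) whose annotation gives a single gene symbol equal to 1 of these 10 were taken, which gave 21 probe sets for 10 of 18193 genes. None of the probe sets with several symbols named any of these genes. The genes were chosen with their values on these arrays known, so the values below are a description.

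The study measured total RNA of ATDC5, a mouse chondrogenic cell line, on Affymetrix mouse expression arrays to look for genes that respond to Nell-1, a secreted growth factor that promotes bone formation, without new protein being made. Serum-starved cells of both groups first received cycloheximide (CHX), a blocker of translation, at 10 µg/ml for 30 min. The CHX+Nell-1 group then received recombinant human Nell-1 at 100 ng/ml for 30 min, and the CHX+PBS group received PBS for 30 min. Each group is 1 array, so no difference below carries an error between cultures, no test was possible and no p-value is given. Both groups carry CHX and serum starvation, and cells without either were not analysed here.

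SRF works with different kinds of partner. Actin monomers hold the MRTF coactivators in the cytoplasm, and when actin is drawn into filaments, MRTF enters the nucleus and joins SRF on cytoskeletal genes. Ternary complex factors such as ELK1, switched on by ERK, join SRF on early response genes. SRF binds the CArG box, a pair of C, then 6 letters that are A or T, then a pair of G, and cartilage cells grown flat and spread are known for assembling actin stress fibres and expressing such contractile genes as they lose their round shape.

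The promoters are shown because the CArG box is what the set is known for. Windows of 300 bases, from 250 before the annotated gene start to 50 after it, were taken from RefSeq (GRCm38.p6) and matched by symbol for 9 of the 10 genes, all but Tagln. The box was searched for letter by letter, and since it reads as a box on either strand, 1 search covers both. An exact box lay in 3 of the 9 windows, those of Srf, Cnn2 and Myl9, and in 1.63% of all 32851 windows. With 1 mismatch allowed, 5 of the 9 windows held a match, against 21.1% of all windows. Capitals below mark every match with at most 1 mismatch. Srf (chr17:46556113-46556412, minus strand) is given for its cluster of 3, Acta2 (chr19:34255324-34255623, minus strand) for its matches that each have 1 mismatch, Cnn2 (chr10:79988350-79988649, plus strand) for its single exact box, and Cnn1 (chr9:22099003-22099302, plus strand) and Pgm5 (chr19:24861793-24862092, minus strand) because these genes had the lowest ratios and no match in the window.
Srf: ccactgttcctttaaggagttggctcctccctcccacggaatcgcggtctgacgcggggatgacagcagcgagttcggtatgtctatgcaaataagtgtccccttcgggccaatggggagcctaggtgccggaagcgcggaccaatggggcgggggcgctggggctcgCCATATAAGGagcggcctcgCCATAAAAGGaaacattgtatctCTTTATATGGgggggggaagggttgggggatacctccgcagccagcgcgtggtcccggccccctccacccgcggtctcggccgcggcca
Acta2: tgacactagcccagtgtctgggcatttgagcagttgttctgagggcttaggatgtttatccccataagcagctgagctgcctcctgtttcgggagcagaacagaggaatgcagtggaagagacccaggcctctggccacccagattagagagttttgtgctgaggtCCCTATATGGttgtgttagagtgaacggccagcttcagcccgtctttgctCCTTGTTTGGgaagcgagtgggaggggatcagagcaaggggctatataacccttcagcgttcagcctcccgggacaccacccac
Cnn1: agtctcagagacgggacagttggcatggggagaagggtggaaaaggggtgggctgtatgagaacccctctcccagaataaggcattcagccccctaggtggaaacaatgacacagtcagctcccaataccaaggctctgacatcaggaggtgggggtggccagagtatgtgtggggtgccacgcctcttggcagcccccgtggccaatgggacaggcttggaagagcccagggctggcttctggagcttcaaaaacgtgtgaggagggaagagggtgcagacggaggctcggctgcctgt
Cnn2: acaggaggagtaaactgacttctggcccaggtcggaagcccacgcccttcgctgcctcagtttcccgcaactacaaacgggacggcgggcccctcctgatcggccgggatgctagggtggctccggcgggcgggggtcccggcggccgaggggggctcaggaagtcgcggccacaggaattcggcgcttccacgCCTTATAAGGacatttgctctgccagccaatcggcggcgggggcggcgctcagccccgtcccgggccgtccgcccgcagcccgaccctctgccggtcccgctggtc
Pgm5: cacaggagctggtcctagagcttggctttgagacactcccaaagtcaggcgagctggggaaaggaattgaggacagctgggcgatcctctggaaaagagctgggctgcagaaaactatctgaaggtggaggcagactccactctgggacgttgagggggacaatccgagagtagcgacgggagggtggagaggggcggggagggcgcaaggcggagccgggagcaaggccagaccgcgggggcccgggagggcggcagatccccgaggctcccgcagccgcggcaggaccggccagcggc
The exact boxes of Srf begin 82 and 62 bases before the gene start and read CCATATAAGG and CCATAAAAGG. The Cnn2 box, CCTTATAAGG, begins 56 bases before the start and the Myl9 box, CCTAATAAGG, 161 bases before it. The Acta2 matches CCCTATATGG and CCTTGTTTGG begin 84 and 34 bases before the start. A match is a run of letters and was not shown here to be bound, and a window without a match says nothing about boxes outside it.

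**Figure D1:**
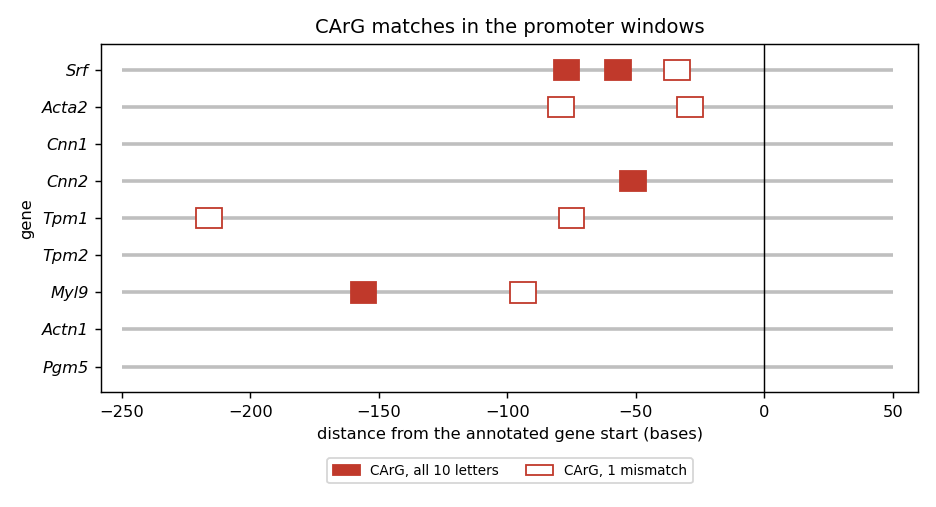
Positions of CArG matches in the promoter windows of 9 genes, with the distance from the annotated gene start in bases on the horizontal axis and 1 row per gene. Filled boxes match all 10 letters and open boxes have 1 mismatch; the exact matches lie in Srf, Cnn2 and Myl9, and Cnn1, Tpm2, Actn1 and Pgm5 have none.

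The values are linear MAS5 signals, in arbitrary units, and each ratio is log2 of the deposited signal with CHX+Nell-1 divided by that with CHX+PBS. A fold of 1.5 is the limit the submitters name for their own filter. Signals were judged low where the mean over both arrays was under 64.3, the median of all 45037 non-control probe sets, because ratios of low MAS5 signals scatter widely. As a yardstick, the robust SD of the log2 ratio (from the median absolute deviation) was taken in each of 10 equal bins of mean signal. It was 0.21 in the brightest bin, 0.28 in the next, 0.43 between signals of 121 and 282, and 0.62 between 64.3 and 121. It mixes noise with any real difference, and it is not an error between cultures.

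With signals as deposited, no contractile gene or probe set was higher by 1.5-fold with Nell-1, 2 genes were lower by more than that on their brightest probe set, and the other 8 stayed within 1.5-fold of their PBS level on it. The 2 were Cnn1, which encodes calponin 1, an actin-binding regulator of smooth muscle contraction, and Pgm5, which encodes a phosphoglucomutase relative found at cell-matrix junctions of muscle. Cnn1 was 6.39-fold lower, with the Nell-1 signal below the median of all probe sets, and Pgm5 was 2.23-fold lower from signals well above it. Across the 21 probe sets, 0 were at least 1.5-fold higher, against 17.5% of all non-control probe sets, and 3 were at least 1.5-fold lower, against 23.1%. Of the 18 at or above the median signal, 0 were higher, against 5.97%, and 2 were lower, against 8.48%. Most of the 21 lie in the brightest bin or the next, where few probe sets pass 1.5-fold. In the brightest bin 1.33% of probe sets were higher and 0.78% lower, and in the next 2.75% and 2.24%.

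Small differences ran mostly one way on the deposited scale. There, 18 of 21 probe sets had a ratio below 0, against 54.4% of all non-control probe sets. All 10 genes lay below 0 on their brightest probe set, against 55.3% of all 18193 genes. The median log2 ratio of the 21 was -0.16, against -0.06 for all non-control probe sets and -0.01 for the brightest bin. Centring each array on its median raised every ratio by 0.15, those of all other probe sets included. The median was then -0.01 for the 21 and 0.09 for all non-control probe sets, so the distance between them was as before, and 11 of 21 probe sets lay below 0, against 42.9% of all. Removing a loess trend left 17 of 21 below 0, against 50.3% of all, and quantile normalization left 17, against 50.5%. Of the 10 genes, 6 lay below 0 on the brightest probe set with median centring, and 9 with either loess or quantile normalization. RNA added to the samples also read lower on the CHX+Nell-1 array. All 24 poly-A spike-in probe sets were lower, with a median of -0.49, and so were all 18 hybridisation spike-ins, with a median of -0.18. The part of this in the small ratios was not tested.

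**Figure D2:**
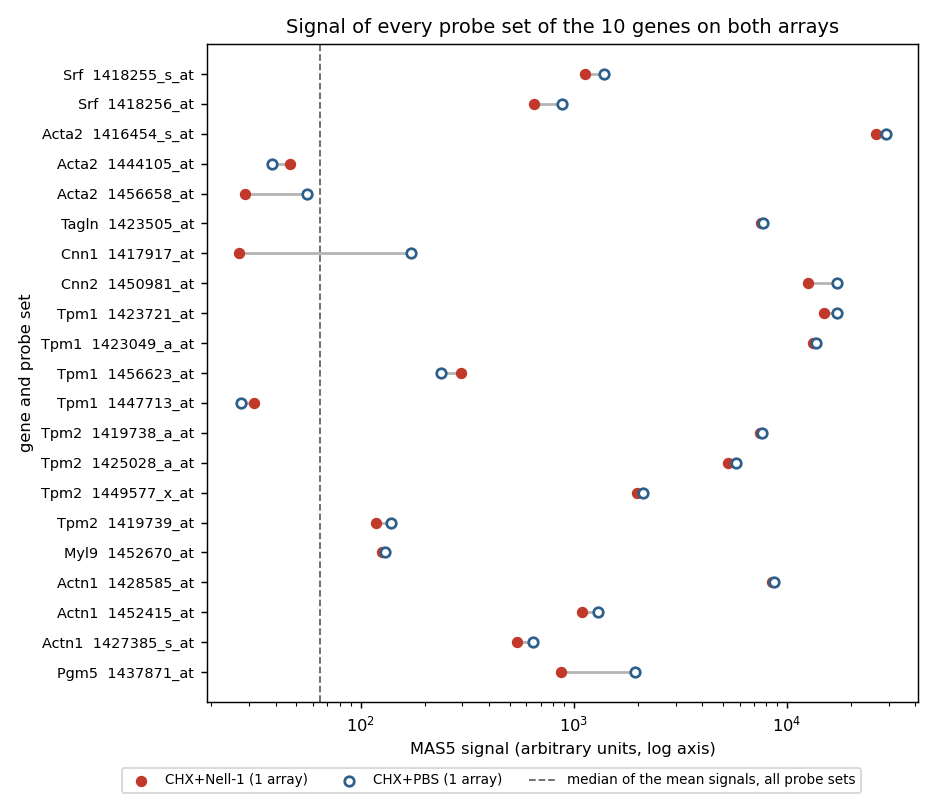
MAS5 signal of every probe set of the 10 genes on the CHX+Nell-1 array (filled) and the CHX+PBS array (open), on a log axis, with 1 array per group and no error bars. Cnn1 at 27.0 against 172 and Pgm5 at 873 against 1944 show the widest gaps among probe sets whose mean lies above the dashed line, the median of all mean signals.

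Srf was lower on both of its probe sets, short of 1.5-fold. The brighter, of a type that can match several transcripts, measured 1131 with Nell-1 and 1389 with PBS, a log2 ratio of -0.30. The other, of the type designed to match a single transcript, measured 648 with Nell-1 and 883 with PBS, a log2 ratio of -0.45. Both lay further from the median of their signal bin than its robust SD of 0.28, and both are well above the median signal. Under median centring the brighter one stood at -0.14. Srf is known as an early response gene itself, and its promoter, shown above, holds CArG boxes.

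The calponins gave different sizes. Cnn1 has 1 probe set, which measured 27.0 with Nell-1 and 172 with PBS, a log2 ratio of -2.68. The Nell-1 value is below the median signal and the PBS value is above it. In the bin of 4503 probe sets with mean signals between 64.3 and 121, 36 had a lower ratio and 22.9% were at least 1.5-fold lower. With 17.9 added to both signals, which damps ratios of low signals, Cnn1 stood at -2.09. Cnn2, a calponin of non-muscle cells with an exact CArG box in its window, has 1 bright probe set at 12582 with Nell-1 and 17206 with PBS, a log2 ratio of -0.45. It did not reach 1.5-fold, yet 108 of the 4504 probe sets in the brightest bin had a lower ratio. It stood at -0.30 under median centring. Cnn3, the remaining calponin and no part of the set, lay between -0.16 and -0.04 as deposited on all 6 of its probe sets, with the brightest at 0.11 under median centring.

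Pgm5 was the clearest single difference among the bright probe sets. Its 1 probe set measured 873 with Nell-1 and 1944 with PBS, a log2 ratio of -1.15. In its bin of 4504 probe sets, 4 had a lower ratio and 2.24% were at least 1.5-fold lower. The ratio stood at -1.16 after loess or quantile normalization and at -1.14 with 17.9 added to both signals. The enzymes of the family gave other values. Pgm1 measured 716 with Nell-1 and 805 with PBS, Pgm2 1084 with Nell-1 and 920 with PBS, and Pgm3 620 with Nell-1 and 734 with PBS, none past 1.5-fold on the brightest probe set. A second Pgm1 probe set, below the median signal, was past 1.5-fold the opposite way, at 77.8 with Nell-1 and 46.8 with PBS. With a single probe set on 1 array per group, nothing within these data repeats the Pgm5 value.

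**Figure D3:**
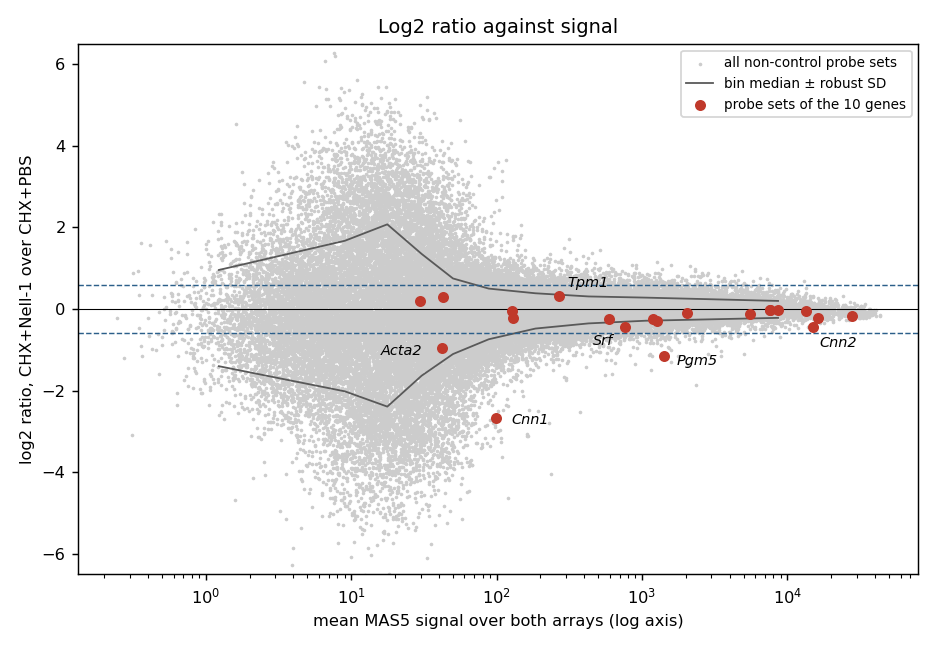
Log2 ratio of CHX+Nell-1 over CHX+PBS against the mean signal (log axis) for all 45037 non-control probe sets (grey) and the 21 probe sets of the 10 genes (red), with the bin median ± robust SD as lines and 1.5-fold as dashed lines. Cnn1 at -2.68 and Pgm5 at -1.15 lie outside the lines and past 1.5-fold; Cnn2 and both Srf probe sets lie outside the lines without reaching 1.5-fold.

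Acta2, which encodes smooth muscle alpha-actin, and Tagln, which encodes transgelin, an actin-bundling protein, are the classical markers of the contractile state. The bright Acta2 probe set is also of the type that can match several transcripts, and it measured 26008 with Nell-1 and 29148 with PBS, a log2 ratio of -0.16, or -0.01 with median centring. The other 2 Acta2 probe sets lay below the median signal and disagreed. The first measured 46.9 with Nell-1 and 38.4 with PBS, and the second 28.8 with Nell-1 and 56.0 with PBS. The second is the 1 member probe set past 1.5-fold below the median signal, at -0.96, in a bin where 33.1% of probe sets were at least 1.5-fold lower. Tagln measured 7529 with Nell-1 and 7706 with PBS, a log2 ratio of -0.03 as deposited and 0.12 with median centring. Both genes were strongly expressed on both arrays, and neither differed by more than the robust SD of 0.21 at this signal.

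The tropomyosins are coiled-coil proteins that lie along actin filaments and set which motors and regulators can bind. Tpm2 was lower as deposited on all 4 probe sets by small amounts. The brightest measured 7468 with Nell-1 and 7629 with PBS, the second 5297 with Nell-1 and 5753 with PBS, the third 1973 with Nell-1 and 2120 with PBS, and the dimmest 119 with Nell-1 and 139 with PBS. The Tpm2 ratios lay between -0.23 and -0.03, and with median centring the brightest stood at 0.12. Tpm1 probe sets disagreed in sign. The brightest measured 14935 with Nell-1 and 17245 with PBS, a log2 ratio of -0.21, and the next 13173 with Nell-1 and 13629 with PBS, a log2 ratio of -0.05. The next, far dimmer, was higher at 296 with Nell-1 and 238 with PBS, and the dimmest, below the median signal, measured 31.5 with Nell-1 and 27.6 with PBS. Tpm1 is known for many splice isoforms, and which of them each probe set reads was not examined. The mean over the 4 Tpm1 probe sets was 0.06, against -0.21 for the brightest alone.

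Myl9 encodes a regulatory light chain of smooth muscle and non-muscle myosin, and Actn1 encodes alpha-actinin 1, which crosslinks actin filaments at focal adhesions and along stress fibres. Myl9 measured 126 with Nell-1 and 130 with PBS, a log2 ratio of -0.05 as deposited, 0.11 with median centring and 0.03 after either loess or quantile normalization. It has an exact CArG box in its window and sat at the middle of its signal bin. Actn1 was lower as deposited on all 3 probe sets. The brightest measured 8503 with Nell-1 and 8653 with PBS, a log2 ratio of -0.03, and stood at 0.13 with median centring. The others measured 1093 with Nell-1 and 1300 with PBS, and 544 with Nell-1 and 641 with PBS, log2 ratios of -0.25 and -0.24, both within the robust SD of their bins.

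**Figure D4:**
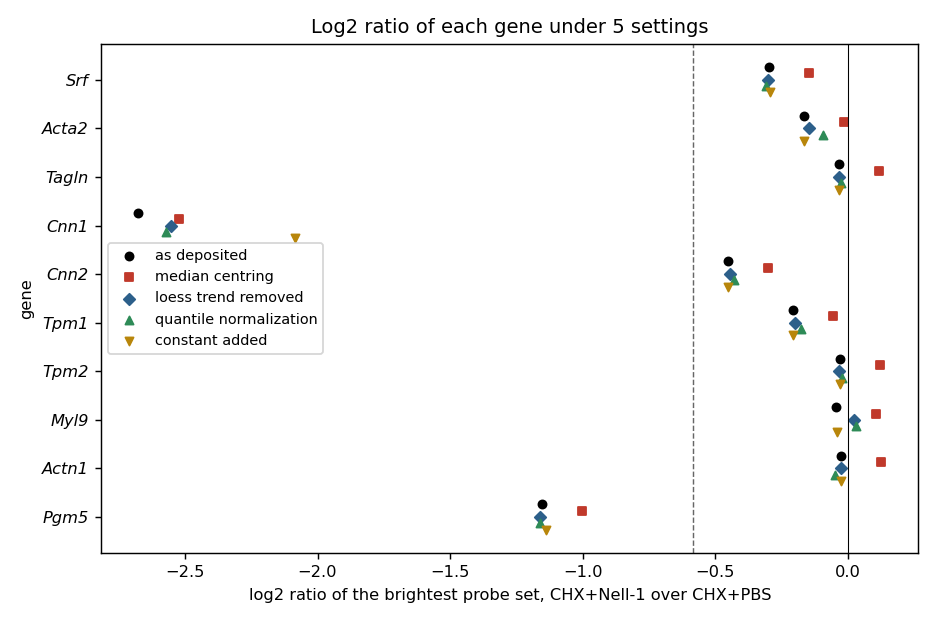
Log2 ratio of CHX+Nell-1 over CHX+PBS of the brightest probe set of each gene under 5 settings, with 0 as a solid line and 1.5-fold lower as a dashed line. Cnn1 and Pgm5 stay past 1.5-fold in all 5; Tagln, Tpm2, Myl9 and Actn1 are below 0 as deposited and above 0 with median centring.

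The partners of SRF were measured on the same arrays, in lists written with earlier results of these data known. Each gene is represented by its brightest probe set, and the background is 13.1% of all 18193 genes at least 1.5-fold higher and 19.0% lower, with a median of -0.06. Of 9 measured MRTF and SRF partners, 1 passed 1.5-fold upward, 2 passed it downward and 6 did not pass, and the median was -0.07, or 0.08 with median centring. Mrtfa, the coactivator that senses free actin, measured 2802 with Nell-1 and 3513 with PBS, a log2 ratio of -0.33. Mrtfb, its close relative, measured 1640 with Nell-1 and 1722 with PBS on its brightest probe set. A dimmer Mrtfb probe set was higher, at 113 with Nell-1 and 15.8 with PBS. Phactr1, which binds free actin, measured 132 with Nell-1 and 293 with PBS on its brightest probe set and was 2.22-fold lower, while its next probe set did not reach 1.5-fold. Elk4, a ternary complex factor, was 1.53-fold higher on the brightest of its probe sets (1313 with Nell-1 and 858 with PBS) and lower on the next (194 with Nell-1 and 318 with PBS). Elk1 was at -0.25 on both probe sets above the median signal. Both arrays gave Myocd, the muscle-restricted coactivator, a signal below the median.

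Genes of the actin filament and its non-muscle motor mostly stayed within 1.5-fold of their PBS level. Of 35 measured, 0 were past 1.5-fold higher, 3 were past it lower and 32 lay between, and the median was -0.17, or -0.02 with median centring. All 35 lay above the median signal, where 4.56% of 11600 genes were higher and 7.53% lower. The 3 lower genes were Actc1 (cardiac actin), Myh14 (a non-muscle myosin heavy chain) and Zyx (zyxin, a focal adhesion protein that responds to tension). Zyx was the brightest of them, at 3096 with Nell-1 and 5079 with PBS, 1.64-fold lower, and its second probe set was lower too, at 139 with Nell-1 and 439 with PBS. With median centring the bright Zyx probe set stood at -0.56, just short of 1.5-fold. Actc1 measured 45.3 with Nell-1 and 147 with PBS, and Myh14 53.0 with Nell-1 and 102 with PBS, both below the median signal on the Nell-1 array. Both share the signal bin of Cnn1, where 22.9% of probe sets were at least 1.5-fold lower. Diaph1, a formin that builds actin filaments, was at -0.57 on its brightest probe set. Actb and Actg1, the cytoplasmic actins, were at -0.07 and -0.15 as deposited and at 0.08 and 0.00 with median centring. Vcl (vinculin) was at -0.18 and Myh9 (a non-muscle myosin heavy chain) at -0.02 as deposited on their brightest probe sets, and at -0.03 and 0.14 with median centring. The 3 array control probe sets for Actb were at -0.15, -0.13 and -0.10 as deposited. Their ratio of 3' to 5' signal, which tracks RNA integrity, was 1.28 with Nell-1 and 1.32 with PBS.

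Close relatives of the 10 genes mostly gave small ratios too. Of 19 measured, 8 of them also in the actin list, 2 passed 1.5-fold higher, 1 (Actc1) lower and 16 did not pass, and the median was -0.09, or 0.06 with median centring. Both higher genes, Tagln3 and Actn2, which were chosen for naming after their values were seen, lay below the median signal. Tagln2, a transgelin of non-muscle cells, was at 0.36 on its brightest probe set and 0.03 on the next. On their brightest probe sets Tpm3 and Tpm4 were at 0.07 and 0.06, and Actn4, the other non-muscle alpha-actinin, at -0.23. Myl6, a myosin essential light chain, was at 0.48 and Acta1, skeletal muscle actin, at -0.40.

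Smooth muscle genes outside the set were also measured. Of 12, 3 of them also in the actin list, 0 passed 1.5-fold higher, against 13.1% of all genes. Another 6 passed it lower, against 19.0%, and 6 did not pass. The median was -0.47, or -0.32 with median centring. Above the median signal 4 of 7 were lower, against 7.53% of all genes there, and no difference from the other lists was tested. Lmod1, which nucleates actin filaments in smooth muscle, measured 34.4 with Nell-1 and 135 with PBS. Des, the muscle intermediate filament desmin, measured 91.7 with Nell-1 and 224 with PBS, and its second probe set, below the median signal, gave 53.6 with Nell-1 and 54.5 with PBS. Itga8, an integrin subunit, measured 41.0 with Nell-1 and 88.4 with PBS, and its second probe set, far below the median signal, differed the opposite way, at 7.34 with Nell-1 and 3.19 with PBS. The mean log2 ratio of both Itga8 probe sets was 0.05. Smtn (smoothelin), the brightest of the 4, measured 1096 with Nell-1 and 1662 with PBS, 1.52-fold lower, and stood at -0.45 with median centring. The brightest probe sets of Lmod1 and Itga8 were below the median signal on the Nell-1 array, as Cnn1 was, and share its signal bin, where 22.9% of probe sets were at least 1.5-fold lower. In the bin of the brighter Des probe set the share was 11.7%.

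**Figure D5:**
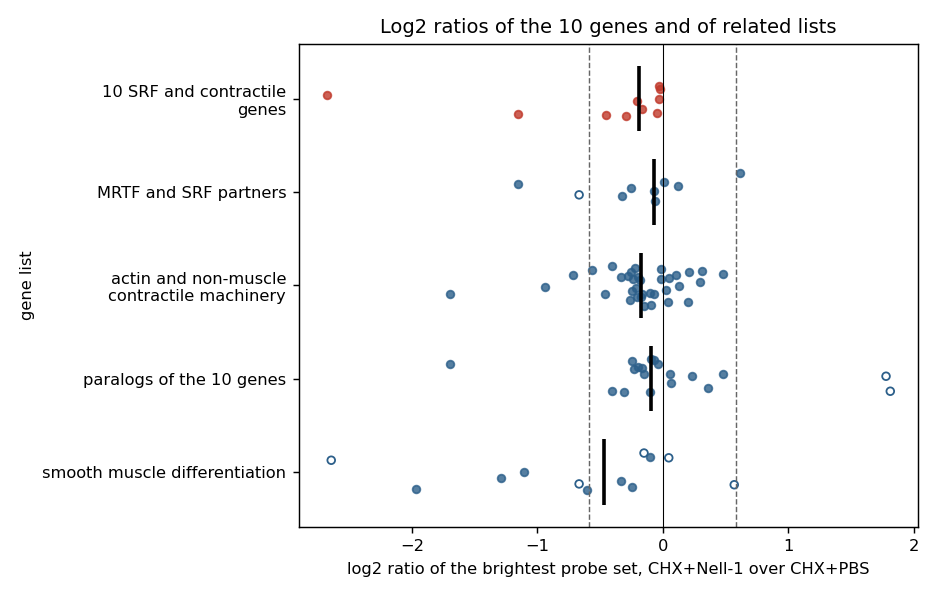
Log2 ratio of CHX+Nell-1 over CHX+PBS of the brightest probe set of each gene, as deposited, for the 10 genes (red) and 4 related lists (blue), with the list median as a black bar and 1.5-fold as dashed lines. Filled points are at or above the median signal and open points below it; medians run from -0.47 for smooth muscle differentiation to -0.07 for MRTF and SRF partners, with -0.19 for the 10 genes.

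Cell type markers bear on which cells these signals come from. On the brightest probe set, 11600 of all 18193 genes lay above the median signal, so a place above it does not by itself show a cell type. Of 11 chondrogenic markers 8 lay above the median signal, among them Sox9, Col2a1 and Acan, while Comp, Matn1 and Matn3 lay below it. The summed signal of all 11 was 5774 with Nell-1 and 6185 with PBS. Its largest part was Sox9, at 2577 with Nell-1 and 3375 with PBS. The 11 were split in direction. Acan (293 with Nell-1 and 176 with PBS) and Sox6 (338 with Nell-1 and 208 with PBS) passed 1.5-fold higher. Prg4 (57.5 with Nell-1 and 168 with PBS), Comp and Matn1 passed it lower, and 6 did not pass. The median log2 ratio of the 8 was 0.05. Of 7 smooth muscle markers, all of them also in the smooth muscle list above, 4 lay above the median signal. The summed signal of all 7 was 1441 with Nell-1 and 2312 with PBS. Most of that sum was Smtn, at 1096 with Nell-1 and 1662 with PBS. The defining genes of smooth muscle were low. Myocd measured 9.97 with Nell-1 and 15.8 with PBS. The smooth muscle myosin gene Myh11 measured 11.9 with Nell-1 and 74.4 with PBS on the brighter of its probe sets, and the dimmer one differed the opposite way, at 25.2 with Nell-1 and 4.59 with PBS. Of 7 skeletal muscle markers 2 lay above the median signal, and Myod1, Myog and Ckm lay below it. The summed signal of all 7 was 369 with Nell-1 and 625 with PBS. That sum includes Des, also a smooth muscle marker, at 91.7 with Nell-1 and 224 with PBS. The skeletal muscle markers below the median signal lay in bins where 33.1% to 37.1% of probe sets were at least 1.5-fold lower. Myod1 measured 34.3 with Nell-1 and 61.9 with PBS, and its dimmer probe set differed the opposite way, at 16.1 with Nell-1 and 3.33 with PBS. Summed signals were 96.0 with Nell-1 and 220 with PBS for 5 endothelial markers, none above the median signal. In the bins of these markers, 33.1% to 41.9% of all probe sets were at least 1.5-fold lower. Cdh5 measured 1.42 with Nell-1 and 43.7 with PBS on its brighter probe set. The dimmer one differed the opposite way, at 14.0 with Nell-1 and 7.64 with PBS. For 5 haematopoietic markers the summed signals were 251 with Nell-1 and 235 with PBS, with 2 markers above the median signal. No marker is at 0, since MAS5 gives every probe set a positive signal. In a bulk RNA sample, fewer cells of a type and less RNA per cell cannot be told apart, and the part of these differences in the ratios of Cnn1 and Pgm5 was not tested.

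Other genes with an exact CArG box in their window were counted the same way, a list taken from sequence alone after the arrays were seen. Leaving out Srf, Cnn2 and Myl9, 226 such genes were measured, of which 12.4% were at least 1.5-fold higher and 21.2% lower. Of 14139 measured genes with a window and no exact box, 12.9% were higher and 18.1% lower. Above the median signal, 7 of 149 genes with a box were higher and 14 lower, which is 4.70% and 9.40%, against 4.39% and 7.14% of 9243 genes without one. The median log2 ratio was -0.05 with a box and -0.03 without. The shares with and without a box were close, and no difference between them was tested.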

How the data were processed

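Per the labels' protocols, RNA was extracted with TRIzol, cleaned on a column, freed of DNA with DNase and biotin-labelled. The deposited values are intensities, linear MAS5 signals per probe set made by the authors. Per the submitters' processing notes, the software was Affymetrix Expression Console with MAS5, in versions not given in the sources used here. The 2% trimmed mean was 500.0 on both arrays. The arrays' log2 signals correlated at r = 0.975 across 22519 probe sets above the median signal, which are not replicates.

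Of 45101 probe sets, 64 were controls and 45037 were analysed. Platform annotation gave 1 symbol to 34945 of them, several to 932 and none to 9160. Log2 ratios and counts were computed in Python 3.11.15 with numpy 2.4.6, pandas 2.3.3 and statsmodels 0.14.6 (loess span 0.3), and the code was tested on simulated data. With 1 array per group no test was run, and the number of arrays limits the precision. The members and lists were chosen with earlier results of these data known. Named genes are the 10 members, genes set by name, and in each list up to 4 genes of the largest ratio among those above the median signal; marker genes, Pgm1 to Pgm3, Tagln3 and Actn2 were named beside these. A further gene list is not reported here. Alternatives were 3 rescalings, an added constant or floor, a 2-fold threshold, signal and probe set filters, and means over probe sets.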

Additional observations from a re-analysis of the deposited data

How the results depend on the processing

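The count of the 21 probe sets at least 1.5-fold higher stayed at 0, and the count lower at 2 or 3, under all alternatives tried. The 2-fold threshold and the filters on signal or probe set type could only lower these counts. The floor changed none of the 21 ratios. Cnn1 and Pgm5 stayed past 1.5-fold under every scaling, added constant and floor. The median log2 ratio of the 21 probe sets stayed between -0.16 and -0.14 with loess, quantile normalization, the added constant and the floor. Median centring gave -0.013 because it adds 0.15 to every ratio, and the median of all non-control probe sets was then 0.09. Parts of the 21 gave other medians. It was -0.19 above the median signal and for the brightest probe set of each gene. Probe sets designed to match a single transcript gave -0.22. For Tpm1 the mean over all probe sets was 0.06, and 0.02 over those above the median signal. Of 59 alternative values for single genes, 57 stayed within 1 robust SD of the reported ratio and kept their side of 1.5-fold. Some of the 59 could not fail the first limit. Median centring adds 0.15 to every ratio, less than the smallest robust SD of 0.21, and the floor changed no gene's ratio. Tagln, Tpm2, Myl9 and Actn1 changed sign with median centring and are still counted among the 57.

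For the lists, 61 of 84 alternative values stayed within 0.1 (medians) or 1.5 times (counts) of the reported ones. With median centring the medians were 0.081 for MRTF and SRF partners, -0.022 for the actin machinery, 0.057 for the paralogs and -0.32 for smooth muscle genes. Higher genes then numbered 1 in the actin machinery and 1 among smooth muscle genes, where the count was also 1 with loess, with quantile normalization and as a mean over probe sets. Lower MRTF and SRF partners numbered 1 under each of the 5 scalings and constants, and 1 above the median signal. As a mean over probe sets their median was -0.33, and lower genes numbered 7 in the actin machinery and 2 among the paralogs. Higher paralogs numbered 1 with the floor and 0 above the median signal. The smooth muscle median was -0.30 with 17.9 added, -0.29 with the floor and -0.60 above the median signal. Where a smaller count or an added value does not itself account for such a change, the cause was not tested.

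No array was left out, since each group has only 1. No paired analysis was possible because the 2 arrays form a single pair.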
